A study of Mus musculus with 14 samples.

Results

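Cultured corneal fibroblasts of the mouse were compared with the adult corneal stroma, the collagen-rich middle layer of the cornea, on 6 of the 14 arrays of the series. The members were the 3 arrays titled as corneal fibroblasts and the 3 titled as adult cornea. The fibroblasts were stromal cells of CD-1 mice, an outbred strain, aged 7 to 8 weeks, grown in primary culture in DMEM with 10% fetal bovine serum. The adult stroma was dissected from CD-1 mice of the same age and was not cultured. A further comparison set the fibroblast cultures against 3 keratocyte cultures from mice of that age, kept in 1% platelet-poor horse serum. Another 3 cultures, named myofibroblasts, had TGF-beta1 at 10 ng/ml besides 10% fetal bovine serum, and 2 arrays held stroma of postnatal day 10, which the labels call P10. Passage number, days in serum and the number of animals per array are not given in the sources used here. Since the labels do not say that replicates were separate cultures or animals, p-values measure the spread between these arrays, which may be technical.

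Keratocytes, the resident cells of the stroma, lie flat between the collagen layers and rarely divide in the adult cornea. Serum carries growth factors such as PDGF and lysophosphatidic acid, which switch on immediate early genes, then the genes of DNA synthesis and, later in the cycle, those of mitosis. Serum also acts through RhoA and actin on SRF, a transcription factor of the contractile and cytoskeletal genes. After wounding, keratocytes next to the wound enter the cycle and take on a fibroblast form, and culture in fetal bovine serum is commonly used to produce such cells.

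All 12422 probe sets other than controls were considered, and 9976 had a mean signal of 50 or more in fibroblast culture or adult stroma. These stood for 7211 genes with 1 symbol each, a gene being read from its brightest probe set. Differences are fibroblast culture minus adult stroma on the log2(signal + 16) scale, which understates changes of dim genes, with their SE from limma. Rose, fell and passed mean an adjusted p below 0.05 over all 9976 probe sets. Control probe sets for transcripts not added to the samples stayed below 138 in 95% of readings. A fold against a group whose mean lay below that level is therefore written as at least so many fold, with 138 in place of the dim group. A signal of exactly 1 is the floor of the deposited values. The Gapdh 3'/5' signal ratio, which rises with RNA degradation, was between 0.795 and 0.859 on the fibroblast arrays and 2.12, 0.908 and 1.04 on adult replicates 1, 2 and 3. Correlations of log2 signals between replicates ran between 0.906 and 0.938 in fibroblast culture and between 0.879 and 0.931 in adult stroma.

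Genes of the matrix and of secreted wound response proteins were often higher in the fibroblast cultures, at 18 of 25 and 22 of 33 tested, and markers of the corneal epithelium were mostly lower, at 30 of 36. Of the 9976 probe sets 3135 (31.4%) passed, 1868 higher (18.7%) and 1267 lower (12.7%) in fibroblast culture. By gene the counts were 1358 higher (18.8%) and 899 lower (12.5%) of 7211, with a median difference of 0.05 over all genes. With the Gapdh 3'/5' ratio, highest on adult replicate 1, as a covariate in the fit, 1202 probe sets were higher and 792 lower. In bulk RNA of this kind, fewer cells of a type and less RNA per cell cannot be told apart.

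The largest rise with arrays that did not overlap was that of Timp2, an inhibitor of matrix metalloproteinases, at 1487, 1759 and 2187 in fibroblast culture, against the floor of 1 on every adult array. Its difference was 6.73 ± 0.16 (adjusted p = 1.32e-12), at least 13.0-fold. Another Timp2 probe set rose less, so the floor readings and the size rest on 1 probe set. It read 689, 672 and 1393 in fibroblast culture and 50.4, 50.3 and 78.5 in adult stroma (3.56, adjusted p = 5.71e-07). Timp1, a relative of Timp2, read 6321, 5734 and 5113 in fibroblast culture and 136, 101 and 145 in adult stroma, at least 41.4-fold higher (5.33 ± 0.15, adjusted p = 6.34e-12). The collagen cross-linking enzyme Lox read 2653, 2570.2 and 2281 in fibroblast culture, against 63.0, 17.3 and 33.1 in adult stroma. On the brightest probe sets of these 3 genes the fibroblast arrays lay close together and far above the adult arrays. The neutrophil attractant Cxcl5 was less even, at 1774, 946 and 432 in fibroblast culture and 3.09 or less in adult stroma. The others among the 10 largest rises were Chil1, a secreted chitinase-like protein, Ctsg, a granule protease, Aebp1, a matrix protein, Ccr8, a chemokine receptor, Adm, the peptide hormone adrenomedullin, and Col8a1, a short-chain collagen. Their differences lay between 5.14 and 6.33.

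The 10 largest falls were led by Col17a1, the hemidesmosome collagen of basal epithelium, at the floor of 1 on all fibroblast arrays and 2467, 2924 and 1986 in adult stroma (at least 17.6-fold, difference -7.17, adjusted p = 6.38e-13). The others were Psca, 2610528A11Rik, Itgb4, Dsp, Perp, Sfn, Krt14, Cldn7 and Mal, with differences between -6.94 and -5.86. Krt12, the keratin of corneal epithelium, read 245, 231 and 287 in fibroblast culture and 6773, 6947 and 7725 in adult stroma, 28.2-fold lower in culture (-4.73 ± 0.14, adjusted p = 7.01e-12). Of the 40 measured genes on the corneal epithelium marker list 36 were tested. Of these 30 fell (83.3%, against 12.5% of all genes) and 0 rose, with a median of -3.55. The summed signal of the list was 4499 to 5002 on the fibroblast arrays and 38888 to 45585 on the adult arrays, and Krt19, Dsc3, Col17a1, Itgb4 and Epcam were the list's members at the floor on every fibroblast array. The arrays labelled stroma carried epithelial markers at high levels, and the part of that tissue in the falls was not tested. Lens and photoreceptor markers also stood high in adult stroma. The 11 lens genes summed to 1569 to 2671 in fibroblast culture and 7537 to 11789 in adult stroma. Of the 10 tested 6 fell (60.0%, against 12.5% of all genes). The 1 that rose, the gamma-crystallin Crygd, chosen after its values were seen, had another probe set that fell (2.60 and -6.05), and near-identical family members make its reading uncertain. Cryba1, a lens beta-crystallin, read 29.7, 30.6 and 21.5 in fibroblast culture and 1328, 2119.9 and 1833 in adult stroma. The 15 photoreceptor genes summed to 668 to 766 in fibroblast culture and 1930 to 5624 in adult stroma. Of the 13 tested 10 fell (76.9%, against 12.5% of all genes). Sag, the rod arrestin, read 3.70, 8.94 and 13.2 in fibroblast culture and 415, 711 and 2352 in adult stroma, highest on adult replicate 3.

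**Figure D1:**
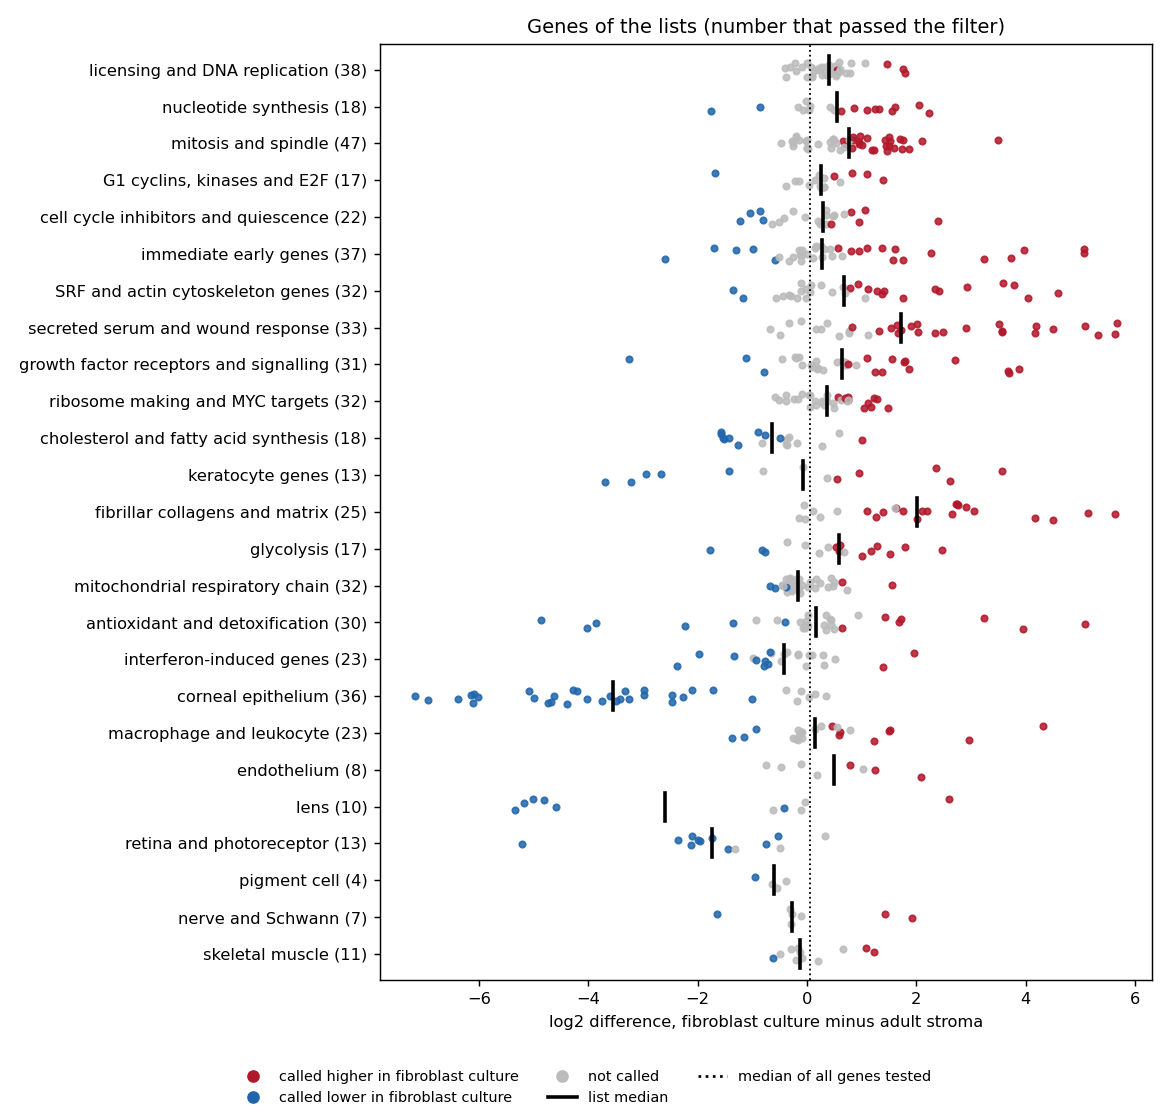
Log2 difference, fibroblast culture minus adult stroma, for each tested gene of the 25 lists (1 dot per gene), coloured red where it passed and was higher in culture, blue where it passed and was lower, and grey otherwise, with the list median as a black bar and the median of all 7211 genes (0.05) as a dotted line. The matrix list sits highest, with a median of 2.02, the epithelium list lowest, at -3.55, and the mitosis list has no blue dot.

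Genes for many steps of mitosis were among those that rose in the fibroblast cultures. Of 48 measured genes on the mitosis and spindle list 47 were tested, 25 rose (all genes, 18.8%) and 0 fell (all genes, 12.5%), with a median of 0.78 against 0.05 over all genes. Without adult replicate 2, 22 rose and 2 fell, and with the Gapdh covariate 22 rose and 0 fell. Cdk1, the kinase that starts mitosis, read 735, 746 and 468 in fibroblast culture and 166, 201 and 164 in adult stroma, 3.60-fold higher (1.76 ± 0.26, adjusted p = 0.000114). Prc1, which bundles microtubules at the spindle midzone, read 341, 319 and 246 in fibroblast culture and 70.3, 87.3 and 55.2 in adult stroma (1.87 ± 0.22, adjusted p = 1.13e-05). Neither gene had an adult array above the lowest fibroblast array. Birc5, the survivin of the chromosomal passenger complex, read 386, 374 and 319 in fibroblast culture, against 125, 121 and 85.3 in adult stroma (1.58 ± 0.20, adjusted p = 3.4e-05). Kif11, the motor that separates spindle poles, read 96.6, 104 and 90.0 in fibroblast culture and 18.5, 29.8 and 22.2 in adult stroma, so all of its signals lay below the level of 138 (1.52 ± 0.19, adjusted p = 3.13e-05). Cks1b, a binding partner of cyclin-dependent kinases, read 611, 448 and 284 in fibroblast culture and 107, 109 and 55.1 in adult stroma (2.11 ± 0.30, adjusted p = 9.9e-05), lowest on fibroblast replicate 3 yet above every adult array.

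The largest difference on the list was that of Cdc25a, a phosphatase that activates cyclin-dependent kinases, at 1224, 787 and 1377 in fibroblast culture and 74.0, 105 and 72.8 in adult stroma (3.50 ± 0.26, adjusted p = 1.35e-07). Its other probe set, dimmer at 87.7 to 169 in fibroblast culture and 82.3 to 102 in adult stroma, did not pass (0.38, adjusted p = 0.152), so the size of this rise rests on 1 probe set. Among members chosen after their values were seen, the condensin subunit Smc2 (1.74), the centriole kinase Plk4 (1.70), the spindle checkpoint protein Mad2l1 (1.50), the cleavage furrow protein Anln (1.49), the passenger kinase Aurkb (1.46), the cytokinesis motor Kif20a (1.43) and the anaphase activator Cdc20 (1.19) also rose. With the Gapdh covariate Cdc20 was not called (0.85, adjusted p = 0.126). The proliferation marker Mki67 was at 386, 337 and 374 in fibroblast culture and 297, 208 and 177 in adult stroma. All fibroblast arrays were above the adult ones, but the difference of 0.68 ± 0.26 did not pass (adjusted p = 0.0618). Without adult replicate 1, where Mki67 was highest among the adult arrays, it passed (0.87, adjusted p = 0.0345). Cyclin A2 (Ccna2) read 395, 444 and 355 in fibroblast culture and 242, 249.7 and 362 in adult stroma, so that 1 adult array lay within the range of the cultures (0.48, adjusted p = 0.0569). It passed without that array, adult replicate 3 (0.66, adjusted p = 0.0103). Foxm1, a transcription factor of mitotic genes named after its values were seen, did not pass (-0.01, adjusted p = 0.984).

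**Figure D2:**
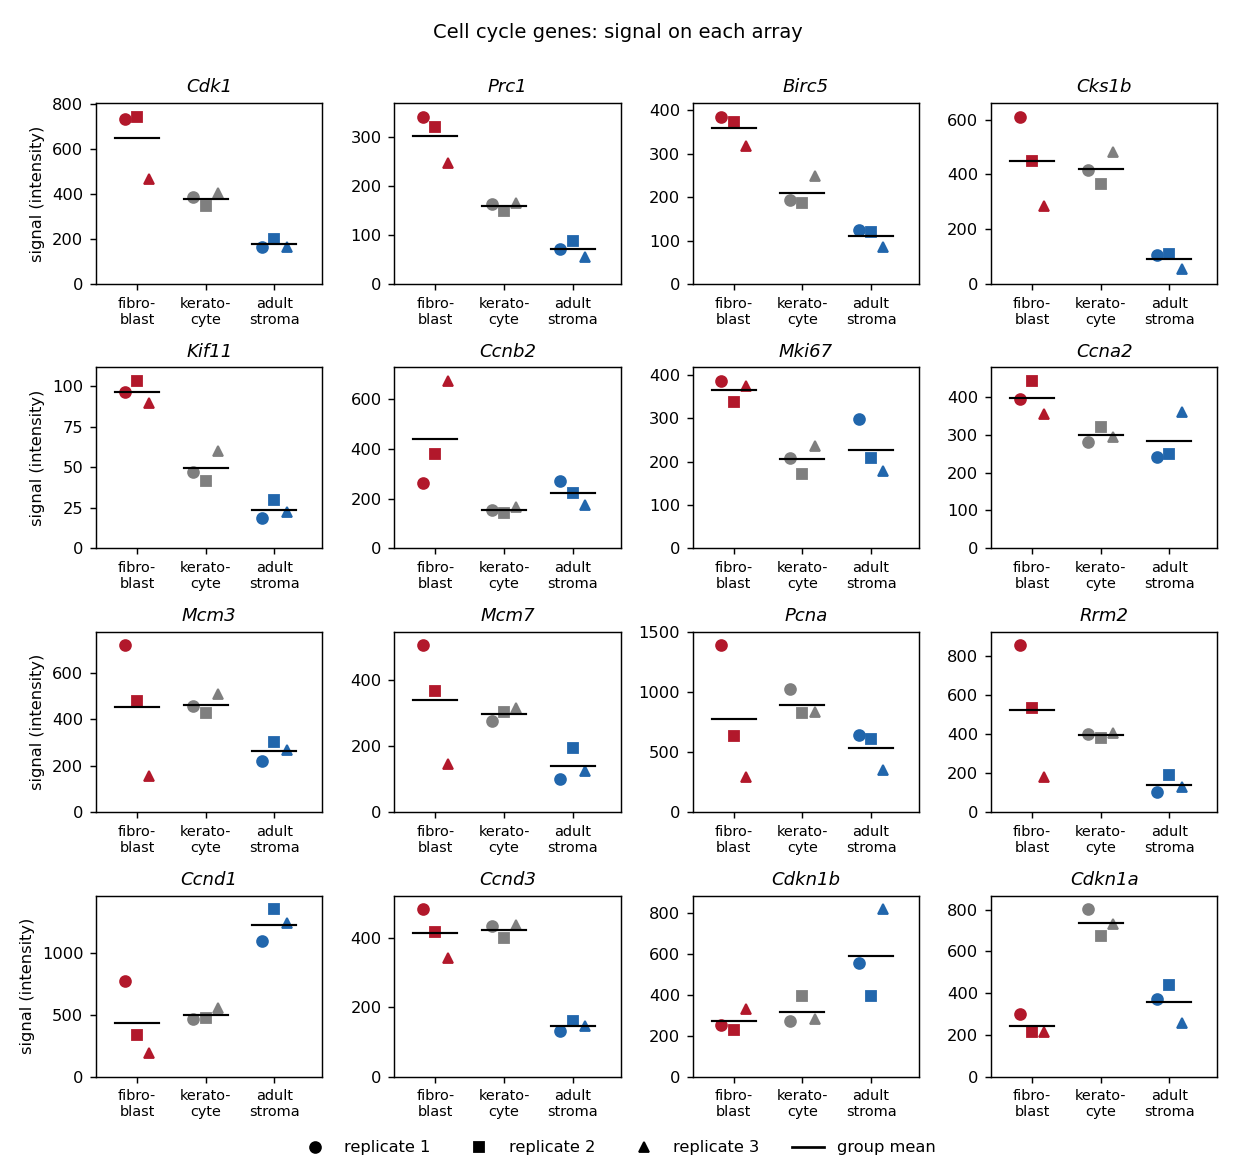
Signal per array of 16 cell cycle genes in fibroblast culture (red), keratocyte culture (grey) and adult stroma (blue), circles, squares and triangles for replicates 1, 2 and 3 and a line at the group mean, each panel on its own linear axis. For Cdk1, Prc1, Birc5 and Kif11 the red points lie above all others, whereas for Mcm3, Mcm7, Rrm2 and Pcna the red triangle of replicate 3 lies far below the other red points.

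Promoters of mitotic genes are known to hold CCAAT boxes, bound by NF-Y, and the CHR element TTTGAA, through which the DREAM complex holds them down in resting cells. The promoters of 3 of the risen genes are shown because they hold both elements, in RefSeq sequence of build GRCm38.p6, with capitals for CCAAT or TTTGAA on the printed strand or as ATTGG or TTCAAA on the other. Kif11 lies at chr19:37376132-37376431 (plus strand), Cdk1 at chr10:69352863-69353162 (minus strand) and Cks1b at chr3:89418242-89418541 (minus strand), each window running 250 bases before to 50 bases after the gene's start.
Kif11: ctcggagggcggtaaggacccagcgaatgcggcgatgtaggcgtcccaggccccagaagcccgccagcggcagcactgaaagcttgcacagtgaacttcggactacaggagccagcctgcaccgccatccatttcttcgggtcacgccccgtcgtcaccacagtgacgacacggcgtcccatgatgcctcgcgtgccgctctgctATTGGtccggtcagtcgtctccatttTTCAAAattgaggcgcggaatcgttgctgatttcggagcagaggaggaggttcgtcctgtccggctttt
Cdk1: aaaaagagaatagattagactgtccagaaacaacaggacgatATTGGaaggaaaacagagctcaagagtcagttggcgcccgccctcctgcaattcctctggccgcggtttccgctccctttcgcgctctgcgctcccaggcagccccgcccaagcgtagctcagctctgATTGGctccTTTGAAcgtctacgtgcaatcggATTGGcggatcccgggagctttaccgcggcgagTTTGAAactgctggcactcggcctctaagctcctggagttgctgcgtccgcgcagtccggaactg
Cks1b: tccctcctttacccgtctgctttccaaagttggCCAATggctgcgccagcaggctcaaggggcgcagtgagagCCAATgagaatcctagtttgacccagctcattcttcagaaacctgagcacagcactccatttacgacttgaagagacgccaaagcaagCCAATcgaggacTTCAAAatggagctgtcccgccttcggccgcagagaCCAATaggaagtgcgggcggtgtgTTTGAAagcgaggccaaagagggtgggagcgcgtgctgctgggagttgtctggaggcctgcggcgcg
On either strand TTTGAA was found in 23 of 39 mitosis list promoters that the table holds (59.0%), against 13.0% of 6576 promoters of genes on the array and 18.1% of all 27025. CCAAT was found in 27 of the 39 (69.2%), against 38.3% and 37.9%. Among the 21 promoters of genes that rose, TTTGAA stood in 12 (57.1%) and CCAAT in 13 (61.9%). The shares describe letters in a window and say nothing about binding.

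DNA replication genes differed among the fibroblast arrays themselves. Of 40 measured genes of origin licensing and DNA synthesis 38 were tested, 5 rose (13.2%, against 18.8% of all genes) and 0 fell, with a median of 0.40. The Gapdh covariate left 2, ending the calls of Rfc3, Pold1 and Orc4. Mcm7, a subunit of the replicative helicase chosen after its values were seen, read 505, 367 and 146 in fibroblast culture and 101, 195 and 125 in adult stroma (1.07, adjusted p = 0.0557). Replicate 3 of the cultures lay within the adult range, whereas for its partner Mcm3, also chosen after its values were seen, it lay below it, at 718, 478 and 158 in fibroblast culture and 222, 301 and 268 in adult stroma (0.52, adjusted p = 0.368). Pcna, the sliding clamp of DNA polymerase, read 1392, 636 and 293 in fibroblast culture and 643, 609.8 and 349.5 in adult stroma (0.30, adjusted p = 0.652). Top2a, which untangles DNA before division, read 324, 312 and 152 in fibroblast culture, against 78.4, 121 and 52.1 in adult stroma, and rose (1.47 ± 0.34, adjusted p = 0.0046). Prim2, a primase subunit (1.80, adjusted p = 0.000947), and Rfc3, of the clamp loader (1.75, adjusted p = 0.0161), rose as well. The remaining 2 were Pold1, the catalytic subunit of DNA polymerase delta (0.55), and Orc4, of the origin recognition complex (0.54). Pold1 lost its call without adult replicate 1 or fibroblast replicate 1 or 2, and Orc4 without adult replicate 3 or fibroblast replicate 1 or 3, at adjusted p between 0.0561 and 0.0793.

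Fibroblast replicate 3 was the lowest of the 3 cultures in 34 of the 38 licensing and replication genes (89.5%), against 27.0% of the 7189 genes that could be ranked. The share was 12 of 18 for nucleotide synthesis, 25 of 32 for SRF and actin genes (78.1%) and 24 of 47 for mitosis (51.1%). Keratocyte genes ran the other way, with replicate 3 the highest in 10 of 13 (76.9%), against 40.1% of all genes. Without this array 18 of the 38 replication genes rose, with a median of 0.73, when 1619 of all 9976 probe sets were higher. Mcm3 (1.12, adjusted p = 0.0135) and Mcm7 (1.56, adjusted p = 0.00439) were among the 18. Without fibroblast replicate 1 only 3 of the 38 rose, with a median of 0.09, when 1472 of the 9976 were higher. Mcm7 also passed without adult replicate 2 (1.31, adjusted p = 0.0376). The mitosis count moved less, to 22 without either of these culture arrays. Which property of the array or culture sets replicate 3 apart was not tested.

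**Figure D3:**
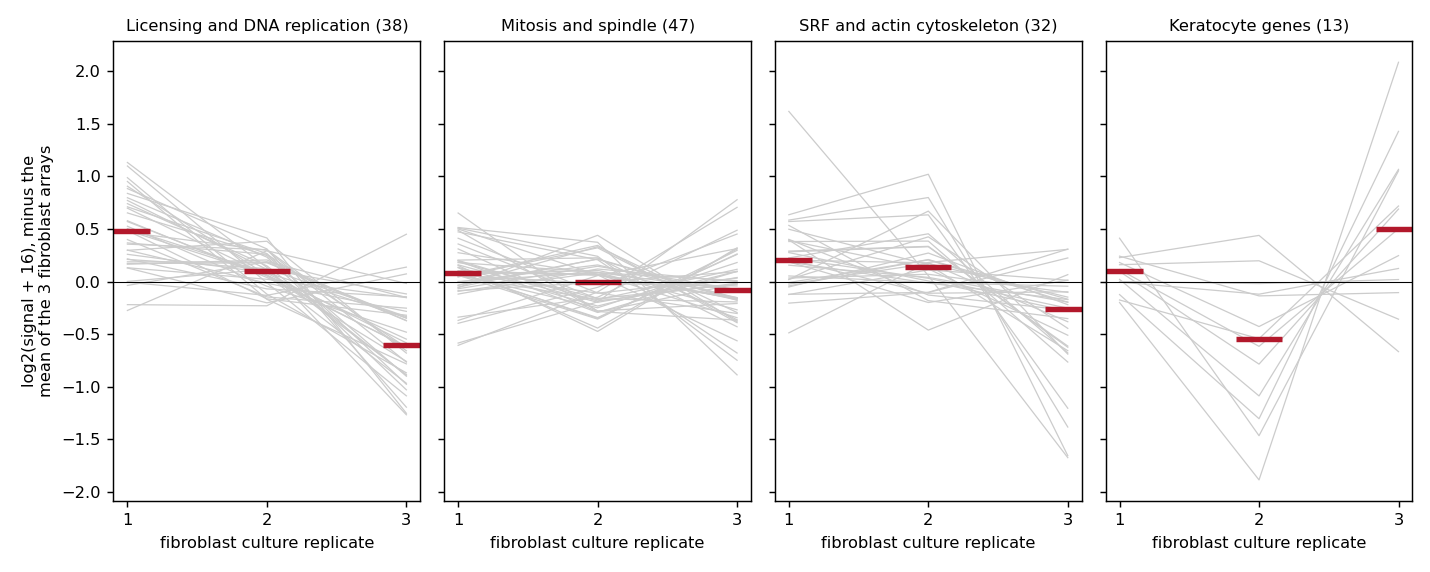
Deviation of each fibroblast array from the mean of the 3 (log2(signal + 16)) for the genes of 4 lists, with a thin line per gene and a red bar at the median of each replicate. Replicates have no order, and the lines only join the values of a gene. Replication genes drop on replicate 3, where 34 of 38 are at their lowest, while keratocyte genes are at their highest there in 10 of 13.

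Nucleotide synthesis, which feeds DNA and RNA synthesis, had 18 tested genes of 19 measured, with a median of 0.56. Of the 18 tested 9 rose (all genes, 18.8%) and 2 fell, a share near the 12.5% of all genes. The Gapdh covariate left 4 risen, without Rrm1, Rrm2 and Tk1. Mthfd2, a mitochondrial enzyme of one-carbon metabolism, read 515, 356 and 415 in fibroblast culture and 95.3, 58.1 and 84.3 in adult stroma (2.23 ± 0.21, adjusted p = 1.7e-06). Ctps, which makes CTP, read 1143, 758 and 827 in fibroblast culture, against 220.4, 195 and 196 in adult stroma, 4.39-fold higher (2.05 ± 0.20, adjusted p = 2.17e-06). In both genes the groups were far apart. Uck2, a uridine-cytidine kinase (1.60), Prps1, which makes the ribose precursor (1.32), and Rrm1, the large subunit of ribonucleotide reductase (1.24), rose too. The small subunit Rrm2, chosen after its values were seen, read 859, 534 and 183 in fibroblast culture and 104, 192 and 133 in adult stroma, with culture replicate 3 inside the adult range (1.56, adjusted p = 0.0155). Its call was lost without fibroblast replicate 1 (1.10, adjusted p = 0.0782) or adult replicate 1 (1.38, adjusted p = 0.0669). Tk1, thymidine kinase, rose by a difference of 0.86 (adjusted p = 0.0099) and missed the threshold without adult replicate 1 (0.73, adjusted p = 0.0501), while its dimmer probe set did not pass (-0.36, adjusted p = 0.274). The genes that fell, named after their values were seen, were the AMP pathway enzyme Adss (-0.85) and the folate enzyme Shmt1 (-1.75). Both lost their calls without adult replicate 2 or fibroblast replicate 2, Adss also without fibroblast replicate 3 and Shmt1 without adult replicate 3, at adjusted p between 0.0605 and 0.0911.

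The D-type cyclins, which carry growth factor signals to the cell cycle, went in opposite directions. Ccnd1 read 774, 341 and 191 in fibroblast culture and 1095, 1357 and 1243 in adult stroma, all cultures below all tissue arrays (-1.68 ± 0.40, adjusted p = 0.00498). Its other probe set fell as well (-0.94, adjusted p = 0.00229). Ccnd3 read 483, 417 and 342 in fibroblast culture and 131, 161 and 146 in adult stroma, 2.82-fold higher (1.40 ± 0.17, adjusted p = 2.25e-05). Ccnd2 did not pass (0.23, adjusted p = 0.415). Of the 17 tested genes on the list of G1 cyclins, kinases and E2F factors, 18 being measured, 4 rose (23.5%, near the 18.8% of all genes) and 1 fell (median 0.25). The 4 became 2 without adult replicate 1 or 3 or fibroblast replicate 2, or with the Gapdh covariate, and 1 without fibroblast replicate 1, when the median was 0.09. Without adult replicate 2, 2 fell. Tfdp1, the E2F partner, was among the 4 (1.10, adjusted p = 0.0101), but not without fibroblast replicate 1 (0.83, adjusted p = 0.0539). Cdk4, the kinase partner of the D cyclins, read 1133, 879 and 518 in fibroblast culture, against 349, 652 and 396 in adult stroma (0.82, adjusted p = 0.0398), and lost its call without adult replicate 1 or 3 or fibroblast replicate 1 or 2, at adjusted p between 0.0952 and 0.172. Cdk5 (0.49, adjusted p = 0.047) kept its call only without adult replicate 2, with adjusted p between 0.0502 and 0.149 without any other array.

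Among inhibitors of the cycle and genes of the resting state, 5 of 22 tested rose (22.7%, near the 18.8% of all genes) and 4 fell (18.2%, against 12.5%), with 23 measured and a median of 0.29. The median was -0.02 without fibroblast replicate 3 and 0.11 without adult replicate 2, and 3 rose without fibroblast or adult replicate 3. With the Gapdh covariate 2 fell, and Cdkn2b lost its call (-0.78, adjusted p = 0.0804). Cdkn1b, the p27 inhibitor of resting cells, read 254, 227 and 332 in fibroblast culture and 556, 396 and 818 in adult stroma (-1.03 ± 0.24, adjusted p = 0.00388), with no overlap, although its dimmer probe set did not pass (-0.60, adjusted p = 0.263). Cdkn2b, the p15 inhibitor (-1.22, adjusted p = 0.00243), and Foxo3, a transcription factor of quiescence (-0.80, adjusted p = 0.00615), also fell. Cdkn1a, the p21 inhibitor, read 301, 216 and 213 in fibroblast culture and 370.0, 441 and 259 in adult stroma (-0.51, adjusted p = 0.0742). It passed without adult replicate 3 (-0.71, adjusted p = 0.0143) or fibroblast replicate 1 (-0.66, adjusted p = 0.0396). Cdkn1c, the p57 inhibitor, did not pass (0.49, adjusted p = 0.214). The stress gene Gadd45g read 254, 266 and 184 in fibroblast culture and 30.5, 40.9 and 22.6 in adult stroma, the largest rise on the list (2.41 ± 0.21, adjusted p = 9.14e-07). Cdkn2d, the p19 inhibitor of Cdk4, rose by a difference of 1.07, and Gadd45b by 0.94, though the other probe set of Gadd45b did not pass (0.05, adjusted p = 0.861). Members chosen after their values were seen and called less firmly were Gadd45a (0.80), the antiproliferative Btg2 (0.43) and the thioredoxin inhibitor Txnip (-0.85), for which another probe set rose (0.57). Without adult replicate 3 Gadd45a and Btg2 lost their calls, without fibroblast replicate 3 likewise, and single other arrays ended the calls of all 3, at adjusted p between 0.0569 and 0.177.

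Immediate early genes, the first to answer serum, moved in both directions. All 37 measured were tested, 14 rose (37.8%, against 18.8% of all genes) and 5 fell (13.5%, near the 12.5% of all genes), with a median of 0.27. The falls numbered 3 without adult or fibroblast replicate 2 and 1 with the Gapdh covariate. Fos itself read 72.1, 96.5 and 51.1 in fibroblast culture and 285, 237 and 115 in adult stroma, all cultures below all tissue arrays (-1.30 ± 0.31, adjusted p = 0.00477). With the Gapdh covariate Fos was not called (-1.03, adjusted p = 0.0886). Egr1 read 724, 723 and 287 in fibroblast culture, against 109, 163 and 175 in adult stroma, 3.65-fold higher (1.76 ± 0.31, adjusted p = 0.000501). Myc, the growth regulator, read 178, 100.3 and 70.7 in fibroblast culture and 42.7, 29.9 and 11.8 in adult stroma, mostly below the level of 138 (1.57 ± 0.33, adjusted p = 0.00219). Its lowest culture array was still above every adult one. Fosl1, the Fra-1 subunit of AP-1, was at 286, 199.7 and 130.2 in fibroblast culture and 104, 109 and 102 in adult stroma (0.81, adjusted p = 0.0105), but not called without fibroblast replicate 1 (0.55, adjusted p = 0.0513) or with the Gapdh covariate (0.85, adjusted p = 0.0551). Junb did not pass (0.46, adjusted p = 0.137), but did without adult replicate 2 (0.75, adjusted p = 0.00821) and with array weights (0.56, adjusted p = 0.0173).

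The largest rises among immediate early genes were those of Ptgs2, the inducible cyclooxygenase, and Ccn2, the connective tissue growth factor. Ptgs2 read 944, 450.4 and 490.0 in fibroblast culture and 4.63, 1 and 1 in adult stroma (5.07 ± 0.29, adjusted p = 8.05e-09). Ccn2 read 3248, 2423 and 1204 in fibroblast culture and 28.5, 109.9 and 30.1 in adult stroma, at least 15.4-fold higher (5.07 ± 0.37, adjusted p = 1.12e-07). For neither did any tissue array come near a culture array. The matrix protein Ccn1 (3.24, at least 7.29-fold), the zinc finger factor Klf6 (3.74, at least 4.26-fold) and the factor Cebpd (3.97, at least 11.3-fold) rose on all cultures as well. Cebpb, the relative of Cebpd (2.28), Ier3 (1.11) and the MAP kinase phosphatase Dusp1 (0.95), chosen after their values were seen, also rose. Klf4, a factor abundant in corneal epithelium, read 463, 178 and 476 in fibroblast culture and 2300.0, 2270.0 and 1927 in adult stroma, 6.32-fold lower in culture (-2.60 ± 0.34, adjusted p = 4.39e-05). Phlda1, chosen after its values were seen, fell too (-1.70, adjusted p = 0.00403), though not with the Gapdh covariate (-1.14, adjusted p = 0.11). Fosb (-0.58) and the RNA-binding Zfp36l1 (-0.99), noted likewise, completed the 5 that fell, but lost their calls without adult replicate 2 or fibroblast replicate 2, Fosb also without replicate 3 of either group and Zfp36l1 without adult replicate 1, at adjusted p between 0.052 and 0.133.

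Part of the contractile and actin genes rose in the fibroblast cultures, to which no TGF-beta1 was added. On the list of SRF and actin cytoskeleton genes all 32 measured were tested, with a median of 0.67. Of these 14 rose (43.75%, against 18.8% of all genes), 2 fell (6.25%, against 12.5%) and 16 were not called. The median was 0.43 without fibroblast replicate 1 and 0.43 with the Gapdh covariate. Acta2, the alpha smooth muscle actin, read 2544, 2954 and 638 in fibroblast culture and 39.6, 65.0 and 63.4 in adult stroma, at least 12.3-fold higher (4.59 ± 0.42, adjusted p = 1.32e-06). Actn1, which cross-links actin filaments, read 2106, 1831 and 1641 in fibroblast culture, against 97.5, 101 and 91.4 in adult stroma (4.05 ± 0.15, adjusted p = 9.36e-11). Tpm1, a tropomyosin, read 2710.3, 3393 and 2410.0 in fibroblast culture and 197, 250.3 and 209 in adult stroma, 12.9-fold higher (3.60 ± 0.15, adjusted p = 3.69e-10). Acta2 was much lower on fibroblast replicate 3 than on the other 2 cultures, whereas Actn1 and Tpm1 were even across them. The calponin Cnn2 (2.93), the myosin light chain Myl9 (2.42) and the actin-severing Cfl1 (2.34) rose, as did Tagln (3.79), Tpm4 (1.76) and vinculin, Vcl (1.41), these last chosen after their values were seen. Actn4 (-1.35) and Flna (-1.17), both actin cross-linkers noted after their values were seen, fell.

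The promoters of 2 risen genes that hold a CArG box, the SRF site, are printed with it in capitals, from the same RefSeq table and window. Cnn2 lies at chr10:79988350-79988649 and Myl9 at chr2:156775214-156775513, both on the plus strand of GRCm38.p6.
Cnn2: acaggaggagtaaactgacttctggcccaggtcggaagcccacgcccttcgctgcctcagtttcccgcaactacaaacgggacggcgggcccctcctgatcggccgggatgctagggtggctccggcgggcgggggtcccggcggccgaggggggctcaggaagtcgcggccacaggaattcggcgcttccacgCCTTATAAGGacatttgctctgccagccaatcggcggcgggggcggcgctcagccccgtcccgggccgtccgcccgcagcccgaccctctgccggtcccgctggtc
Myl9: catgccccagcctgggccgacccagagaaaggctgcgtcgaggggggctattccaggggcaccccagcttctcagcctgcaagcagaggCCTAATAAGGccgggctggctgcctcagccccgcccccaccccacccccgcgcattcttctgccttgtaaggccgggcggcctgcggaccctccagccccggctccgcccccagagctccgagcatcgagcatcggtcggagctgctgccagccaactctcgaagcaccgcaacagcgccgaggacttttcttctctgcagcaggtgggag
A CArG box was found on either strand in 8 of 29 promoters of the list (27.6%), against 1.64% of promoters of genes on the array, and in 4 of the 12 whose genes rose (33.3%). Many known SRF sites lie outside a window of this length, so the absence of a match says only that the letters are not in it.

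Secreted proteins of the serum and wound response made up one of the most shifted lists. Of 35 measured genes 33 were tested, 22 rose (66.7%, against 18.8% of all genes) and 0 fell, with a median of 1.72. Ccl2, which attracts monocytes, read 842, 292 and 705 in fibroblast culture and 1 on every adult array, and Ccl7, Vegfc and Il11, noted after their values were seen, were also at the floor on all 3. The 4 genes rose by differences between 2.34 and 5.08. Tenascin C, Tnc, a wound matrix protein, read 2679, 2951 and 1425 in fibroblast culture and 90.7, 117 and 122 in adult stroma, at least 16.3-fold higher (4.18 ± 0.27, adjusted p = 3.6e-08). Thbs2, a matrix thrombospondin, read 2514, 1822 and 3644 in fibroblast culture, against 94.5, 102 and 97.6 in adult stroma, at least 18.6-fold higher (4.50 ± 0.30, adjusted p = 4.46e-08). Fibronectin, Fn1, was at 5252, 4648 and 5446 in fibroblast culture and 1619.6, 1268 and 946 in adult stroma, 4.09-fold higher (2.02 ± 0.16, adjusted p = 2.29e-07). Of these matrix proteins Fn1 was bright on every array, while Tnc and Thbs2 stood below the background level in adult stroma.

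Proteases and growth factors chosen after their values were seen behaved alike. The stromelysin Mmp3 read 2044, 1409 and 827 in fibroblast culture and 57.1, 141 and 111 in adult stroma (3.58, adjusted p = 3.17e-05), and the collagenase Mmp13 read 346, 234 and 162 in fibroblast culture, against 8.64 or less in adult stroma (3.57, adjusted p = 5.24e-05). Fgf7, the keratinocyte growth factor by which stromal cells signal to epithelium, read 141, 129 and 151 in fibroblast culture and 13.7, 15.4 and 43.2 in adult stroma (2.04, adjusted p = 1.97e-05). Csf1, which supports macrophages, read 1427, 1121 and 1444 in fibroblast culture and 315, 266 and 478 in adult stroma (1.90, adjusted p = 4.49e-06). The groups did not overlap for any of the 4. Among the 11 members that did not pass were Has2 (0.77, adjusted p = 0.269) and Pdgfa (0.17, adjusted p = 0.511), also chosen after their values were seen.

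Of 33 measured genes of growth factor receptors and signalling 31 were tested, with a median of 0.64, or 0.40 without fibroblast replicate 3. Rises numbered 12 (38.7%, against 18.8% of all genes) and falls 3 (9.68%, against 12.5%). Pdgfrb, a receptor of PDGF, read 405, 212 and 321 in fibroblast culture and 3.79, 1 and 13.9 in adult stroma, at least 2.20-fold higher (3.89 ± 0.27, adjusted p = 6.56e-08). Pdgfra read 1642, 677 and 1879.7 in fibroblast culture and 129, 52.9 and 85.7 in adult stroma (3.69 ± 0.38, adjusted p = 3.81e-06). Its other 2 probe sets were near background in both groups and did not pass (-0.07 and -0.52), so the rise of Pdgfra rests on 1 of 3 probe sets. The shared receptor chain of the IL-6 family, Il6st, read 1186, 1114 and 1755 in fibroblast culture, against 84.7, 101 and 81.4 in adult stroma, at least 9.61-fold higher (3.68 ± 0.20, adjusted p = 6.21e-09). The interleukin-1 receptor Il1r1 (2.71) and the thrombin receptor F2r (1.77) rose, and so did Fgfr1 (1.80), the lysophosphatidic acid receptor Lpar1 (1.56) and the kinase Axl (1.87), chosen after their values were seen.

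Kit, the receptor of stem cell factor, went the other way, at 29.4, 40.8 and 26.1 in fibroblast culture and 538, 429 and 365 in adult stroma, at least 3.18-fold lower (-3.25 ± 0.20, adjusted p = 1.44e-08). Every culture signal was below the background level. Fgfr2, an FGF receptor of epithelia chosen after its values were seen, fell by a difference of -0.79 (adjusted p = 0.00561) on its bright probe set, while another did not pass (0.54, adjusted p = 0.0621). Dusp6, a phosphatase that damps ERK and is induced by it, also chosen after its values were seen, read 119, 110.1 and 62.5 in fibroblast culture, against 215, 277 and 185 in adult stroma (-1.12, adjusted p = 0.00169). The groups did not overlap.

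**Figure D4:**
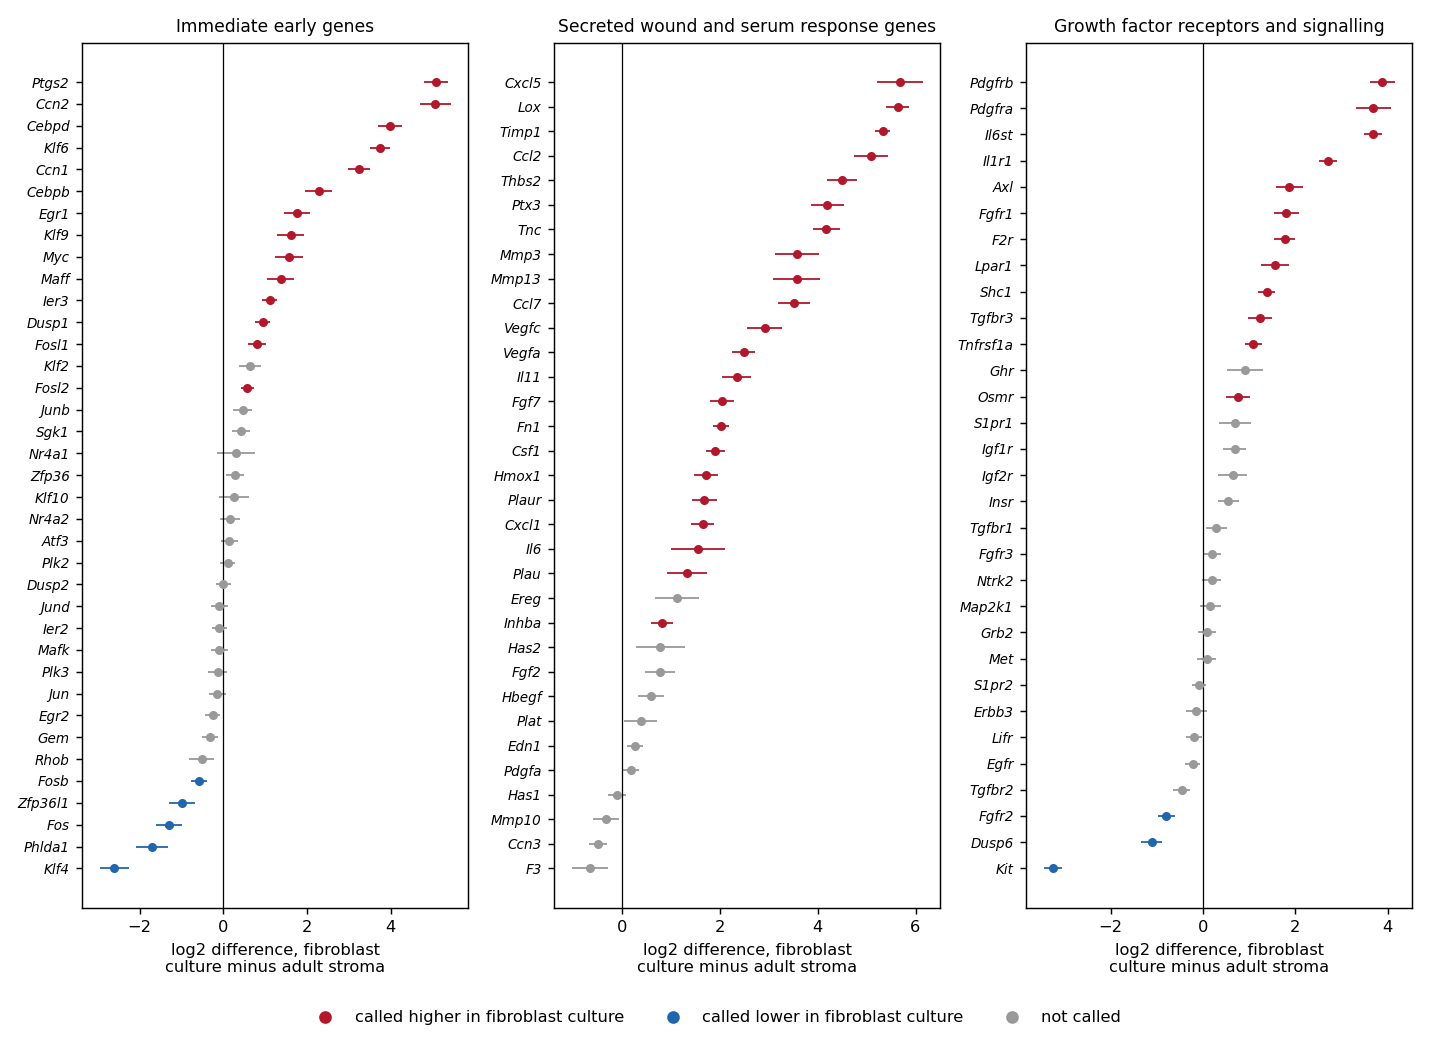
Log2 difference, fibroblast culture minus adult stroma, with SE bars from limma, for each tested gene of the immediate early, secreted and receptor lists, red where it rose, blue where it fell and grey otherwise. Immediate early genes lie on both sides of zero (14 red, 5 blue), and no secreted gene is blue (22 red).

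Among genes of ribosome production and targets of Myc all 32 measured were tested, with a median of 0.36. Of these 10 rose (31.25%, against 18.8% of all genes), 0 fell and 22 were not called. With the Gapdh covariate 3 rose, and Srm, Nme2 and Eif5a lost their calls. Npm1, nucleophosmin, read 2468, 1852 and 1385 in fibroblast culture and 799, 884 and 674 in adult stroma, 2.37-fold higher (1.23 ± 0.19, adjusted p = 0.000215). Eif4ebp1, a brake on cap-dependent translation, read 170.2, 192 and 188 in fibroblast culture and 38.6, 89.2 and 47.8 in adult stroma (1.48 ± 0.24, adjusted p = 0.000242). Both stood clear of the tissue arrays. Gar1, of the small nucleolar particles (1.29), the spermidine synthase Srm (1.18), the kinase Nme2 (1.04) and the translation factor Eif5a (0.76) rose too. Replicate 3 was the lowest culture in 22 of the 32 (68.8%), and 15 rose without it (median 0.63) against 8 without fibroblast replicate 1, when 1 fell (median 0.05).

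Genes of sterol synthesis were among those that fell in the fibroblast cultures. On the list of cholesterol and fatty acid synthesis 18 of 19 measured genes were tested, 1 rose and 9 fell (all genes, 12.5%), with a median of -0.63. Without adult replicate 3, 2 rose and 10 fell. Sqle, squalene epoxidase, read 196, 201 and 308 in fibroblast culture and 838, 756 and 514 in adult stroma, 2.99-fold lower in culture (-1.52 ± 0.25, adjusted p = 0.000285). Hmgcs1, the synthase before the rate-limiting step, read 294, 232 and 304 in fibroblast culture and 1059, 1018 and 556 in adult stroma, 3.07-fold lower in culture (-1.56 ± 0.31, adjusted p = 0.00137). Msmo1, a sterol demethylating enzyme, read 236, 263 and 308 in fibroblast culture, against 1014, 880.1 and 589 in adult stroma (-1.54 ± 0.26, adjusted p = 0.000404). In each case adult replicate 3 was the lowest tissue array and still above all cultures. Fdps (-1.43) and Idi1 (-1.25), of the isoprenoid steps, fell as well, and so did Fdft1 (-0.77) and the fatty acid synthase Fasn (-0.90), chosen after their values were seen. Fdft1 lost its call with the Gapdh covariate (-0.64, adjusted p = 0.095). The desaturases parted: Scd2 read 921, 1116 and 995 in fibroblast culture and 3001, 3193 and 2938 in adult stroma (-1.58 ± 0.18, adjusted p = 1.25e-05), and Scd1, chosen after its values were seen, read 320.4, 305 and 512 in fibroblast culture and 183, 188 and 156 in adult stroma (1.01 ± 0.22, adjusted p = 0.00287). The summed signal of the list was 4142 to 4979 in fibroblast culture and 7922 to 10927 in adult stroma.

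Promoters of sterol genes pair CCAAT boxes with sterol regulatory elements read by SREBP. The windows of Hmgcs1 at chr13:119690101-119690400 (plus strand) and Msmo1 at chr8:64733529-64733828 (minus strand), RefSeq, GRCm38.p6, are printed as the falling genes with several such boxes, with CCAAT or ATTGG and TCACNCCAC in capitals.
Hmgcs1: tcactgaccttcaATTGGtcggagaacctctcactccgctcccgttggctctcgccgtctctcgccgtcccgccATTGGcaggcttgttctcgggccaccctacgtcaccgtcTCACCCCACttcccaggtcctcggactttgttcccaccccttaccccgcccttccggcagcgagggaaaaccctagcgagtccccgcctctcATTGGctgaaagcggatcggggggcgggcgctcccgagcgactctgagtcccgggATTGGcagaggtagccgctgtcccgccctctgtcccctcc
Msmo1: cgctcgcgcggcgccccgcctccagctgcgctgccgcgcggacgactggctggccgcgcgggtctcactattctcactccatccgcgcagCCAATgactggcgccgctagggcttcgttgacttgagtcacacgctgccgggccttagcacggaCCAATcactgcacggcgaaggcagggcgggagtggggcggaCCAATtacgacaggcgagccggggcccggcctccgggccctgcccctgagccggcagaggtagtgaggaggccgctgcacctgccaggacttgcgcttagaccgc
CCAAT stood on either strand in 13 of the 14 promoters of the list that the table holds (92.9%), against 38.3% of promoters of genes on the array, and in all 5 of those whose genes fell. The sterol element TCACNCCAC was found in 1 of the 14, that of Hmgcs1, against 1.22% of all promoters.

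**Figure D5:**
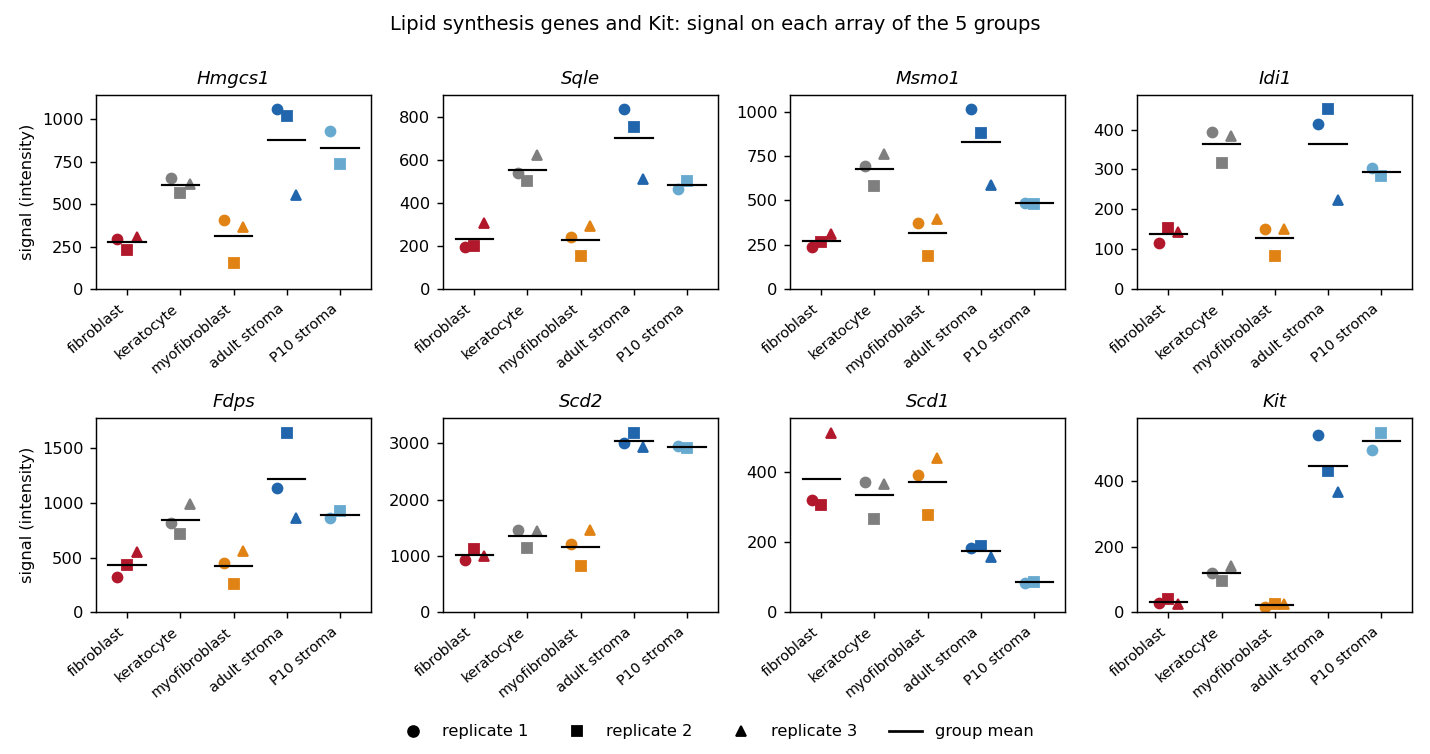
Signal per array of 7 lipid synthesis genes and Kit in the 5 groups of the series, with a line at each group mean and a linear axis per panel. Sqle, Msmo1, Idi1, Hmgcs1 and Fdps are low in the fibroblast and myofibroblast cultures, both in 10% fetal bovine serum. They are higher in keratocyte culture and in adult and P10 stroma, while Scd1 is lowest in P10 stroma. Hmgcs1 and Fdps did not pass between fibroblast and keratocyte culture. Sqle, Msmo1 and Idi1 did, but lost their calls without 5, 6 and 5 of the 6 culture arrays.

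Genes held to be typical of keratocytes were split. All 13 measured were tested, 5 rose (38.5%, against 18.8% of all genes) and 5 fell (38.5%, against 12.5%). The median, -0.07, lay between -0.46 and 0.27 with single arrays left out, without fibroblast replicates 3 and 2. With the Gapdh covariate 2 fell, and Kera, Gsn, Aldh3a1 and Lum were not called. Kera, keratocan, the keratocyte proteoglycan, read 48.3, 1.50 and 84.3 in fibroblast culture and 429, 265 and 214 in adult stroma, at least 2.11-fold lower (-2.66 ± 0.71, adjusted p = 0.0104). Tkt, transketolase, which is abundant in the cornea, read 625, 477 and 488 in fibroblast culture, against 4838, 4972 and 5209 in adult stroma. It was 9.51-fold lower in culture (-3.21 ± 0.24, adjusted p = 1.26e-07). The adult arrays also carried epithelial markers at high levels, and the part of epithelium in the fall of Tkt was not tested. Aldh3a1, the corneal crystallin enzyme also made in large amounts by epithelium, read 751, 222 and 3721 in fibroblast culture and 6154, 6745 and 7415 in adult stroma. All cultures were lower, but their wide spread left the call at the threshold (-2.94 ± 1.06, adjusted p = 0.0488), and it was lost on leaving out any of the 3 adult arrays or fibroblast replicate 1 or 2, at adjusted p between 0.0884 and 0.18. Its other probe set fell further (-5.86, adjusted p = 0.000831). Tgfbi, a matrix protein of corneal epithelium and stroma chosen after its values were seen, fell 13.9-fold in culture (-3.69, adjusted p = 9.58e-07). Gsn, the actin-severing gelsolin, also chosen after its values were seen, fell (-1.42, adjusted p = 0.0133), but not without adult replicate 1 (-1.34, adjusted p = 0.0501) or fibroblast replicate 2 (-1.03, adjusted p = 0.0581). The proteoglycans fibromodulin, Fmod, at 2535, 1961 and 4723 in fibroblast culture and 198, 279 and 208 in adult stroma (3.57, adjusted p = 1.4e-07), and biglycan, Bgn (2.62, adjusted p = 6.47e-09), rose, as did osteoglycin, Ogn, chosen after its values were seen (2.35, adjusted p = 0.00615). Decorin, Dcn, bright everywhere, read 5108, 4713 and 5587 in fibroblast culture and 3552, 3173 and 3748 in adult stroma, 1.47-fold higher (0.55 ± 0.11, adjusted p = 0.00176). Lumican, Lum, read 2513, 1643 and 2631 in fibroblast culture and 1557, 1160.1 and 817 in adult stroma, just inside the threshold (0.95 ± 0.35, adjusted p = 0.05 to 2 digits), and lost its call without adult replicate 2 or 3 or fibroblast replicate 1 or 3, at adjusted p between 0.084 and 0.185.

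The matrix list had the highest median of the 25, at 2.02, with 18 of 25 genes higher (72.0%, against 18.8% of all genes) and 0 lower. Its summed signal was 42470 to 54067 in fibroblast culture and 10466 to 13678 in adult stroma. Besides Lox, Tnc and Thbs2, Col8a1 read 3018, 3159.9 and 4776 in fibroblast culture and 84.7, 101 and 73.2 in adult stroma, at least 25.9-fold higher (5.14, adjusted p = 2.54e-10). Col5a1 (2.76), which starts collagen fibrils, the collagen chaperone Serpinh1 (2.73) and Col1a1 (1.10), the main fibrillar collagen, rose among genes chosen after their values were seen. Col1a1 read 6745, 5392 and 6538 in fibroblast culture and 2815, 2926 and 2904 in adult stroma on its bright probe set. Its other probe set did not pass (0.23, adjusted p = 0.506).

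Glycolytic genes rose in 9 of 17 tested (52.9%, against 18.8% of all genes) and fell in 3 (17.6%, against 12.5%). On this list 18 were measured and the median was 0.59. With the Gapdh covariate 5 rose and 1 fell. Pgam1, phosphoglycerate mutase, read 1144, 976 and 1126 in fibroblast culture and 336, 468 and 311 in adult stroma (1.52, adjusted p = 4.48e-06), and Pkm, pyruvate kinase, read 3357, 3297 and 3581 in fibroblast culture and 733, 1528 and 804 in adult stroma (1.80, adjusted p = 1.28e-05). Aldoc, an aldolase, fell, at 79.2, 102 and 73.8 in fibroblast culture, against 308, 315 and 356 in adult stroma (-1.77, adjusted p = 6.22e-07). The lactate dehydrogenase subunit Ldhb (-0.77) and the kinase Pdk1 (-0.82), chosen after their values were seen, fell too, Pdk1 with adjusted p between 0.0697 and 0.161 without adult replicate 1 or 3 or fibroblast replicate 1 or 2. Among subunits of the respiratory chain 2 of 32 tested rose (6.25%) and 3 fell (9.38%), below the 18.8% and 12.5% of all genes. There 34 were measured and the median was -0.17. Cytochrome c1, Cyc1, was the largest rise (1.56, adjusted p = 3.99e-05) and Sdhc (0.65) the other. The rise of Cyc1 rests on 1 of 2 probe sets. Its other probe set, at 1558 to 1905 in fibroblast culture and 1174 to 1490 in adult stroma, did not pass (0.35, adjusted p = 0.0585). The 3 that fell were Cox6c (-0.38) and, named after their values were seen, Cox4i1 (-0.67) and Uqcrc2 (-0.58). Each lost its call without adult replicate 1 or 2 or fibroblast replicate 2, Cox6c also without fibroblast replicate 1 and the others without fibroblast replicate 3, at adjusted p between 0.0511 and 0.157. On this list 2 rose and 0 fell without adult replicate 1 or fibroblast replicate 2, 4 and 2 without adult replicate 2, 2 and 1 without fibroblast replicate 3, and 1 and 0 with the Gapdh covariate. Of antioxidant and detoxification genes 7 of 30 tested rose (23.3%) and 6 fell (20.0%), near the 18.8% and 12.5% of all genes (31 measured, median 0.17). The median was 0.08, 0.35 and 0.11 without fibroblast replicates 1, 2 and 3 in turn. Gsto1, a glutathione transferase, read 706, 365 and 256 in fibroblast culture and 6026, 5775 and 6541 in adult stroma, 15.1-fold lower in culture (-3.86, adjusted p = 7.7e-08). Sod3, the extracellular superoxide dismutase, read 1892, 1259.8 and 2194 in fibroblast culture, against 157, 233 and 131 in adult stroma, 10.3-fold higher (3.25, adjusted p = 2.44e-07). Cyp1b1, a cytochrome P450 enzyme chosen after its values were seen, read 802, 240.0 and 893 in fibroblast culture and the floor of 1 on all adult arrays (5.08, adjusted p = 7.6e-07).

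Of 24 measured interferon-induced genes 23 were tested, 2 rose and 8 fell (34.8%, against 12.5% of all genes), with a median of -0.41, or -0.13 with the Gapdh covariate. The immunoproteasome subunit Psmb8 read 61.8, 55.2 and 66.7 in fibroblast culture and 452, 482 and 264 in adult stroma (-2.38, adjusted p = 6.74e-07), and the factor Irf1 read 151, 171 and 174 in fibroblast culture, against 494, 561 and 312 in adult stroma (-1.34, adjusted p = 7.91e-05). B2m, the light chain of class I histocompatibility molecules, chosen after its values were seen, ran against them, at 2197, 1503 and 2699 in fibroblast culture and 737, 643 and 301 in adult stroma (1.95, adjusted p = 0.000154), and so did Ifit2 (1.40), likewise chosen.

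Marker lists of other cell types showed which cells the arrays could hold besides stromal cells. Of 26 measured macrophage and leukocyte genes 23 were tested, with a median of 0.14. Rises numbered 8 (34.8%, against 18.8% of all genes) and falls 3 (13.0%, near the 12.5% of all genes). The counts became 4 and 1 without adult replicate 1 or with the Gapdh covariate, 5 and 3 without fibroblast replicate 3 and 9 and 1 without fibroblast replicate 2, and the median was -0.06 without adult replicate 2. Their summed signal was 3067 to 5401 in fibroblast culture and 4080 to 4499 in adult stroma. Lyz2, the macrophage lysozyme, read 722, 130.1 and 599 in fibroblast culture and 1, 12.6 and 1 in adult stroma (4.32, adjusted p = 8.88e-05), lowest on fibroblast replicate 2. Those that fell, named after their values were seen, were Cd74, of class II antigen presentation (-1.38), the complement chain C1qb (-0.93) and the galectin Lgals3 (-1.16). C1qb lost its call without adult replicate 1 or 3 or fibroblast replicate 1 or 2, and Lgals3 without adult replicate 1 or 2 or fibroblast replicate 2, at adjusted p between 0.059 and 0.142. Of the risen genes, C1qa (0.60), C1qc (0.46), Cd68 (0.60) and Cd14 (1.23), chosen after their values were seen, each lost its call without adult replicate 1 and without 1 or more other arrays, at adjusted p between 0.0508 and 0.192. Of 12 measured endothelial genes 8 were tested, and 3 rose (37.5%, against 18.8% of all genes) and 0 fell. The TGF-beta co-receptor Eng, which fibroblasts also make, rose most (2.09, adjusted p = 6.73e-06), ahead of the sialomucin Emcn (1.25) and the VEGF receptor Flt1 (0.79). Other probe sets of Emcn (0.89, adjusted p = 0.0531) and Flt1 (-0.06, adjusted p = 0.862) did not pass. With the Gapdh covariate Eng alone was called. The remaining lists had few calls. Of 7 nerve genes tested Pmp22 (1.93) and Sox10 (1.43) were higher (28.6%, against 18.8% of all genes) and Mbp (-1.64) lower (14.3%, near 12.5%). Of 11 muscle genes Pvalb (1.22) and Tnnc2 (1.09) were higher (18.2%) and Myh2 (-0.62) lower (9.09%), near the shares of all genes. Other probe sets of Sox10 (0.004, adjusted p = 0.989) and Tnnc2 (0.22, adjusted p = 0.526) did not pass. Of 4 pigment cell genes Mitf (-0.95) was lower (25.0%, against 12.5% of all genes). With the Gapdh covariate Mitf (-0.73), Pvalb (1.03) and Sox10 (1.88) lost their calls, at adjusted p between 0.0593 and 0.0922. Sox10 lost its call without adult or fibroblast replicate 2 or 3, and Myh2 without adult replicate 3 or fibroblast replicate 1 or 3, at adjusted p between 0.0502 and 0.162. Without adult replicate 2 the pigment and muscle lists had 2 lower each. The part of these cells in the differences was not tested.

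The fibroblast cultures were then set against the keratocyte cultures, which asks whether the difference from adult stroma is the same in both serum conditions. Adult arrays cancel in this comparison. Of the 9976 probe sets 89 passed (0.892%), 14 higher (0.14%) and 75 lower (0.752%) in fibroblast culture. By gene, 7 were higher (0.0971%) and 58 lower (0.804%) of 7211, with a median of -0.09. The probe set counts fell to 3 higher and 37 lower without fibroblast replicate 3, and to 4 and 16, 3 and 45, and 2 and 15 without keratocyte replicates 1, 2 and 3 in turn. Mitosis genes leaned upward without passing. In 41 of the 47 the fibroblast mean was above the keratocyte mean, with a median of 0.35, against 2478 of 7211 genes, and Kif2c, a microtubule depolymerase chosen after its values were seen, was the 1 gene called (0.92 ± 0.18, adjusted p = 0.0312). Cdk1, for example, read 735, 746 and 468 in fibroblast culture and 387, 346 and 407 in keratocyte culture, above them on every array, with an adjusted p of 0.368 (0.72). Serum response lists had medians below zero, as had all genes. The medians were -0.19 for immediate early, -0.15 for SRF and actin, -0.07 for secreted, -0.08 for receptor and -0.28 for ribosome genes. Replication genes had a median of -0.07, with 12 of 38 above zero. In these lists 1 secreted gene passed as higher and 1 receptor gene as lower.

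Cdkn1a was lower, at 301, 216 and 213 in fibroblast culture and 802, 676 and 730.4 in keratocyte culture (-1.55, adjusted p = 0.00224). Kit read 29.4, 40.8 and 26.1 in fibroblast culture and 119, 95.5 and 142 in keratocyte culture, and so lay near or below the background level in both (-1.49, adjusted p = 0.00224). Aldoc was at 79.2, 102 and 73.8 in fibroblast culture, against 346, 362 and 377 in keratocyte culture (-1.91, adjusted p = 5.36e-05). None of these 3 overlapped, and all 3 passed on leaving out any single array. Of the sterol list 3 of 18 passed, Sqle (-1.21), Msmo1 (-1.29) and Idi1 (-1.31), and 2 of 18 were above zero (median -0.43). Those 3 calls were lost without 5, 6 and 5 of the 6 culture arrays. Sqle read 196, 201 and 308 in fibroblast culture and 540.0, 504 and 626 in keratocyte culture. The 2 phosphofructokinases Pfkp (-1.11) and Pfkl (-0.90), and the metallothioneins Mt1 (-1.86) and Mt2 (-1.75), chosen after their values were seen, were lower. Thbs2 was higher, at 2514, 1822 and 3644 in fibroblast culture and 1018, 504 and 762 in keratocyte culture (1.78, adjusted p = 0.0135). With only these groups fitted and replicate number as a block, 0 probe sets were higher, so neither Thbs2 nor Kif2c was called.

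Markers of other cells moved in the same comparison. Macrophage genes summed to 3067 to 5401 in fibroblast culture and 6465 to 7909 in keratocyte culture, and 5 of 23 were lower, Tyrobp by rule (-1.42) and C1qa (-1.28), C1qc (-1.07), Cd68 (-1.13) and Ctss (-2.20) named after their values were seen. Pigment cell genes summed to 439 to 677 in fibroblast culture and 1992 to 2354 in keratocyte culture, with Dct, a melanin enzyme, at 359, 388 and 239 in fibroblast culture and 1238, 1094 and 1267 in keratocyte culture (-1.84, adjusted p = 0.00267) and the melanosome protein Pmel (-1.60) also lower. Perp (-1.87) and Pax6 (-2.45) of the epithelium list and the prostaglandin D synthase Ptgds (-1.89) of the keratocyte list were lower as well, and of the genes of these 3 sentences Dct, Pmel, Pax6 and Ptgds were chosen after their values were seen. The part of these cell types in the difference between the cultures was not tested. Of the 22 named genes called between the cultures, 6 kept their call with each of the 6 culture arrays left out in turn, namely Aldoc, C1qa, C1qc, Cdkn1a, Dct and Kit, and the other 16 lost it without at least 1 of them. Msmo1, Pfkl and Pmel lost it without any of the 6, at adjusted p between 0.06 and 0.199. Sqle, Idi1, Kif2c, Mt1, Mt2, Pfkp and Ctss lost it without 5 of the 6, Thbs2, Perp and Cd68 without 3, and Tyrobp, Pax6 and Ptgds without 2, with adjusted p of at most 0.211.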

How the data were processed

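Total RNA (5 µg per array, TRIzol) was measured on Affymetrix MG_U74Av2 arrays. The deposited values are linear intensity signals made with MAS5 and scaled by the authors to a target intensity of 150, per the labels' protocols. No detection calls were used here. Precision is limited by the number of arrays. Symbols came from the platform annotation: of 12422 probe sets 10833 had 1 symbol, 396 several and 1193 none.

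The fit of log2(signal + 16) used limma 3.58.1 (R 4.3.3), with 1 mean per group over all 14 arrays (9 residual degrees of freedom) and eBayes with a trend. Tests were two-sided with Benjamini-Hochberg adjustment over 9976 probe sets. Simulated data had 200 of 9976 probe sets changed and errors drawn independently. For culture against stroma 58% of changes of 1 and 98% of changes of 2 (log2) were recovered, with 11 false calls. Between the cultures 66% and 95% were recovered, with 14 false calls. In the data 31.4% of probe sets passed against stroma, far more than were changed in the simulation, so its rates need not hold there.

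The members, the 25 gene lists and the tests were chosen with earlier results of these data known, so the lists are described without a test. Genes were named by rule: the 10 largest rises and falls without overlap, the 6 called members with the lowest p of each proliferation or serum list, the 3 of each other list, and 29 fixed genes, of which Ccnb1, Srf and Il1rl1 are not analysed here. Other names are marked in the text as chosen after their values were seen. Alternatives covered the added constant, filters, normalization, fit, covariate, thresholds, probe set summary and each array left out.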

Additional observations from a re-analysis of the deposited data

Results flagged for a closer look

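For 22 named genes the difference from adult stroma was called unlike in the 2 cultures. The test was limma's, of fibroblast minus keratocyte culture at an adjusted p below 0.05. Of the 22, Aldoc, C1qa, C1qc, Cdkn1a, Dct and Kit kept their call with each culture array left out in turn, and 16 lost it. Thbs2 and Kif2c were among the 16, and with replicate number as a block in the fit 0 probe sets were higher in fibroblast culture. Genes higher in fibroblast culture were Thbs2 (1.78 on the log2 scale) and Kif2c (0.92). Among genes lower in fibroblast culture were the cycle inhibitor Cdkn1a (-1.55), the receptor Kit (-1.49), the aldolase Aldoc (-1.91) and the phosphofructokinases Pfkp (-1.11) and Pfkl (-0.90). The sterol genes Sqle (-1.21), Msmo1 (-1.29) and Idi1 (-1.31) and the metallothioneins Mt1 (-1.86) and Mt2 (-1.75) were lower too. Of macrophage markers, Tyrobp (-1.42), Cd68 (-1.13), C1qa (-1.28), C1qc (-1.07) and Ctss (-2.20) were lower, and of pigment cell markers Dct (-1.84) and Pmel (-1.60). The remaining genes were Perp (-1.87), Pax6 (-2.45) and Ptgds (-1.89). No search for single outlying samples was made within groups of 3 arrays.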

How the results depend on the processing

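For culture against stroma the counts of 1868 higher and 1267 lower probe sets became 1202 and 792 with the Gapdh 3'/5' ratio as a covariate and 355 and 271 for differences tested beyond 1 (limma's treat), and the lower count became 809 at an adjusted p below 0.01 and 842 with only the groups compared. With 1 array left out, 1472 to 1983 were higher and 1008 to 1552 lower. Of the calls 59.6% were higher, 53.3% after quantile normalization and 53.4% after median centring. Fibroblast minus keratocyte culture depended more on the settings. Against 14 higher and 75 lower there were 2 and 20 at an adjusted p below 0.01, 3 and 25 with only the groups compared, 0 and 0 with treat (49 at an unadjusted p below 0.05), and 48 and 234 with array weights. The higher count was 8 with log2(signal + 1), 9 with the covariate and 31 with quantile normalization or median centring, and the lower count 127 with no filter. With 1 array left out, 2 to 15 were higher and 15 to 94 lower. The main fit did not pair arrays by replicate number. Correlations of same-numbered deviations from group means were 0.219, -0.015 and -0.016 for culture and stroma, and 0.194, 0.580 and 0.072 for the cultures. Between the cultures those of differently numbered arrays ran from -0.515 to 0.332. Whether same-numbered cultures shared a batch or origin was not tested. The replicate block gave 1376 higher and 881 lower against stroma. Between the cultures it gave 0 and 15, with 1525 at an unadjusted p below 0.05 (limma), against 861 for only the groups compared. Of 22 named genes Aldoc, Cdkn1a and Pmel were called with the block. For 231 named genes, 3135 of 3454 values under settings other than leaving out an array kept direction and side of the threshold, 305 lost the call, 12 gained it and 2 reversed: by the median over probe sets Pdgfra came to -0.075 (adjusted p = 0.795) and Crygd to -1.73, where 2 probe sets disagreed. With an array left out 1246 of 1386 kept both, 125 lost the call, 15 gained it and 0 reversed. Where no construction of the setting shows it, the cause was not tested. Signals below 138 limit dim genes. Of 93 other probe sets of 77 named genes, 34 had the same call as the probe set used and 2 the opposite one. The rest differed in call or were too dim to be tested.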
